A study of Mus musculus with 2 samples.

Results

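Of the 3153 deposited binding peaks of the PAR bZIP transcription factor HLF, hepatic leukemia factor, 588 lay deep inside protein-coding genes. A peak was counted as deep when its centre lay within the bounds of a coding gene and over 20 kb, but at most 100 kb, from the nearest start or end coordinate of any coding gene. The choice used position alone and no measured peak height. The peaks came from an anti-FLAG chromatin immunoprecipitation on mouse LSK cells, the lineage-negative, Sca-1 and c-Kit positive fraction that holds blood stem and multipotent progenitor cells.

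The FLAG-HLF cells were wild-type LSK cells infected with a pMX retrovirus that carries 3xFLAG-Hlf and an IRES-GFP marker, and the GFP-ctrl cells were the same cell type infected with the pMX-GFP virus. After infection both stayed for 5 days in OP9 medium that contained the cytokines SCF, IL-7, Flt3L and IL-3, and each arm had 1 library. The factor was therefore a tagged protein expressed from a virus in cultured cells, not the endogenous HLF, and the sources used here give neither the number nor the sex of the donor mice. All peaks described are those of the FLAG-HLF library, and GFP-ctrl peaks were not analysed here. The file holds positions only, so read depth is unknown, the LSK identity could not be checked against markers, and no value below has a replicate. Peaks and genes, the units of every test below, are not replicates of the experiment, and the intervals cover counting error only.

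PAR bZIP factors bind DNA as dimers through a basic region and a leucine zipper, at palindromic sites close to TTACGTAA, and share variants of that site with the C/EBP factors of the myeloid lineage. HLF is known in blood as a factor of stem and early progenitor cells. Enhancers of blood genes often lie in introns, far from any promoter, and an enhancer inside a gene may act on that gene or on a neighbour. Assigning a deep peak to its host gene therefore describes its place only.

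For 14 deep peaks part of the sequence under the peak could be read. These peaks overlapped the 300-base window around an annotated transcription start within the host gene. They were 2.50% of the 561 deep peaks on chromosomes with such windows (95% exact Clopper-Pearson interval 1.37 to 4.15%), against 2.84% of distal intergenic peaks, 12 of 422. The difference did not pass Fisher's exact two-sided test (adjusted p = 0.841 over 5 added tests). The windows also have gaps on these chromosomes. The nearest annotated start was up to 1806 kb from a deep peak and up to 1498 kb from a distal intergenic peak. Peaks in such gaps could not overlap a window, so both shares may be too low and their comparison may be affected. At 7 of the 14 peaks the start was an internal one of the host gene itself, and at the other 7 it was that of a noncoding gene within the host. The own starts were those of Lims1, an adaptor of integrin-linked kinase, Osbp2, an oxysterol-binding protein, Sertad2, Vrk1, a nuclear kinase, Retreg1, a receptor for autophagy of the endoplasmic reticulum, Cytip, a regulator of leukocyte adhesion, and St7. Their peak centres were 32 to 141 bases from the start.

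The stretches below are the bases upstream of the start that lie under the peak, read 5′ to 3′ on the strand of the gene from the RefSeq windows of GRCm38.p6 (mm10). They show the 2 deep peaks with a site of the PAR bZIP and C/EBP kind upstream of the start, the peak with such a site downstream of it (Gm36034), examples with words of the RUNX, ETS and GATA kind, and 1 GC-rich start with no match. Capitals mark matches, on either strand, to the 10 motifs searched that lie wholly within the stretch.
Retreg1 (chr15:25940452-25940701, plus strand): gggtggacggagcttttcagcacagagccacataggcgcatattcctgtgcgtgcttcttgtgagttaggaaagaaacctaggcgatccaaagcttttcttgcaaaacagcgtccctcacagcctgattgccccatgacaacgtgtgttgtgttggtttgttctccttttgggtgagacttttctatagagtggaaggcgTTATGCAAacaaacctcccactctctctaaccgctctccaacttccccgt
Gm33325 (chr15:97343211-97343335, minus strand): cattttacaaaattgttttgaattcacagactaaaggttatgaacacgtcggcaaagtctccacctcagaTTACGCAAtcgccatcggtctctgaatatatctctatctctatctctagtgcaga
Cytip (chr2:58160123-58160372, minus strand): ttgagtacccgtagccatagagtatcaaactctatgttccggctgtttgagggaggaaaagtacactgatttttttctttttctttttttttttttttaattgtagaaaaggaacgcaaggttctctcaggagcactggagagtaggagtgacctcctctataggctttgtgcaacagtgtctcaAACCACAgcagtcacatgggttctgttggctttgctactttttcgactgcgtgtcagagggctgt
Lims1 (chr10:58351713-58351962, plus strand): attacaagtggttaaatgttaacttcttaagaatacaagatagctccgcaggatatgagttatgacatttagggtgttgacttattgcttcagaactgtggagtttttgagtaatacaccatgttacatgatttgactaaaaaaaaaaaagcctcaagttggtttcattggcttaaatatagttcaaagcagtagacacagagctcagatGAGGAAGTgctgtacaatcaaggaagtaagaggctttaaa
Gm36034 (chr9:111596100-111596349, plus strand): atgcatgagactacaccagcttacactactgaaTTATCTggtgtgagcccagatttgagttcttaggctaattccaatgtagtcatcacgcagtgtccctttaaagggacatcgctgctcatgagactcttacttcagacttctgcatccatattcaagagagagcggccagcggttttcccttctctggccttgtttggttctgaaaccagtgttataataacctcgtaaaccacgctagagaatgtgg
Osbp2 (chr11:3774669-3774918, minus strand): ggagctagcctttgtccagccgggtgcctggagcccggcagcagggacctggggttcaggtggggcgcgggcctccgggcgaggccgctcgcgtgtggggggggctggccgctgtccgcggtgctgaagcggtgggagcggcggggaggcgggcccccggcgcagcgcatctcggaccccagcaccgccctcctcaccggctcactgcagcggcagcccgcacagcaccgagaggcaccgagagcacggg

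In the Retreg1 stretch the capitals are TTGCATAA read on the opposite strand, and the site was 13 bases from the peak centre. Gm33325 is a noncoding gene inside Pced1b, and its capitals are TTGCGTAA on the opposite strand, 126 bases from the centre. The Cytip capitals are TGTGGTT, a RUNX core, on the opposite strand and 15 bases from the centre. Lims1 has the ETS-type word GAGGAAGT 93 bases from the centre. Gm36034, a noncoding gene inside Stac, has the GATA-type word AGATAA on the opposite strand, 150 bases from the centre, and its TTACATAA lies past the start and outside the stretch shown. The Osbp2 stretch held none of the 10 motifs, which says only that these letters are not in it.

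Motif shares put these few windows beside larger sets. Of the 15 windows that deep peaks overlapped, 3 held at least 1 of the 5 words TTACGTAA, TTGCGTAA, TTACATAA, TTGCGCAA and TTGCATAA. Of the 227 windows under any FLAG-HLF peak, 44 did, or 19.4%, against 2.10% of all 32851 windows. TTGCGTAA alone was in 1 of the 15 windows, in 4.85% of the windows under any peak and in 0.167% of all windows. TTACGTAA itself was in 0 of the 15, in 0.441% of those under any peak and in 0.119% of all. The 3 deep windows were those of Retreg1, Gm33325 and Gm36034, the last with TTACATAA downstream of its start. Of the other words, AGATAA was in 3 of the 15 windows and 11.2% of all, TGANTCA (the AP-1 site) in 2 and 7.81%, TGTGGTT in 2 and 5.27%, GAGGAAGT in 1 and 3.20%, and CACGTG (the E-box) in 1 and 7.15%. The words can overlap one another, and a window counts once per word. Whole windows were searched, including bases outside the peak. The CACGTG of Gm35581, inside Kazn, and the AGATAA of Tbrg3, inside Tcf20, lay outside their deep peaks. The sequence of the other deep peaks was not used here.

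Deep peaks were more frequent than peaks at the same distance outside genes. The 588 deep peaks lay in 371 Mb of deep intragenic span, the bases that meet the same rule, at 1.58 peaks per Mb (95% exact Poisson interval 1.46 to 1.72). The 440 distal intergenic peaks, those outside coding genes and 20 to 100 kb from one, lay in 439 Mb, at 1.003 per Mb (0.911 to 1.10). The density ratio was 1.58 (95% interval 1.39 to 1.79, two-sided exact conditional binomial test, adjusted p = 1.53e-12 over the 10 tests of the family). The spans include bases that cannot be mapped, and accessible chromatin was not measured, so its part in the ratio was not tested.

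The density inside genes exceeded that outside in each of 6 bands of distance. At 20 to 30 kb there were 1.67 peaks per Mb inside genes (1.42 to 1.95), against 1.20 outside (0.997 to 1.44). At 30 to 40 kb the values were 1.67 inside and 1.30 outside, and at 40 to 50 kb 1.49 inside and 1.02 outside. In these 3 bands the intervals inside and outside genes overlapped. At 50 to 60 kb there were 1.97 inside (1.57 to 2.45), against 1.05 outside (0.790 to 1.37). At 60 to 80 kb the values were 1.46 inside and 0.784 outside. At 80 to 100 kb there were 1.19 inside (0.889 to 1.55), against 0.593 outside (0.423 to 0.807). In the 3 bands from 50 kb on they did not overlap. The change of the difference with distance was not tested. Nearer to gene ends, at 1 to 20 kb, intragenic peaks had 2.14 per Mb (2.002 to 2.29), against 1.80 for intergenic peaks (1.66 to 1.94). Beyond 100 kb, peaks inside genes had 0.539 per Mb (0.444 to 0.647), against 0.215 outside (0.183 to 0.252). The higher density inside genes was therefore not particular to the deep peaks.

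**Figure D1:**
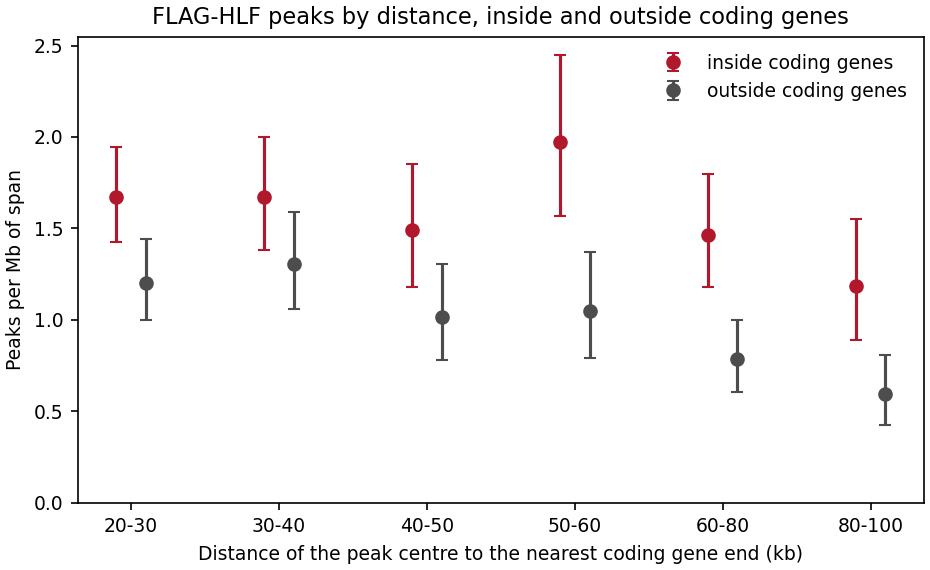
Peaks per Mb of genome span (y) in 6 bands of distance from the nearest coding gene end in kb (x), for peaks inside coding genes (red) and outside them (grey), with 95% exact Poisson intervals. In each band the point inside genes is above the point outside, with the highest value, 1.97 per Mb, at 50 to 60 kb inside.

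The deep peaks were spread over the allowed distances. Their centres were 20.01 to 99.4 kb from a coding gene end, with a median of 41.1 kb and quartiles of 28.6 and 59.3 kb. Just inside the limit were peaks in Syne3, which encodes a nuclear envelope protein (20.01 kb), Notch1, a receptor of lymphoid fate (20.03 kb), and Kat2b, a histone acetyltransferase (20.4 kb). Just outside it were intragenic peaks in Nedd9, an adhesion scaffold (19.98 kb), Slc2a3, a glucose transporter (19.9 kb), and Prr5l (19.9 kb). The 5 farthest from a gene end lay in Clvs1 (99.4 kb), Epb41l4a (99.1 kb), Chd9, a chromatin remodeler (99.1 kb), Gab2 (98.8 kb) and Rbms1 (98.5 kb). For 42 of the 588 peaks the nearest coding gene end belonged to a gene other than the host.

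Host genes were long, as the rule requires. A coding gene could hold a deep peak if at least 1 of its bases met the distance rule, which 5852 genes did. Of these, 499 held at least 1 deep peak (8.53%). The hosts had a median length of 148 kb, against 80.5 kb for eligible genes without a deep peak and 17.3 kb for all coding genes on these chromosomes. Since longer genes offer more span, densities are given per Mb below.

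The longest genes held few deep peaks for their span. Genes under 100 kb had 1.89 deep peaks per Mb (1.60 to 2.22). The next class, up to 200 kb, had 1.93 (1.70 to 2.18), and the class up to 400 kb had 1.58 (1.35 to 1.85). Genes over 400 kb had 29 deep peaks in 61.8 Mb, or 0.469 per Mb (0.314 to 0.674), against 1.81 per Mb in all shorter eligible genes, a ratio of 0.260 (0.172 to 0.377, exact conditional binomial test, adjusted p = 4.36e-17). By gene, a deep peak was held by 3.87% of eligible genes in the shortest class, then by 14.5%, 20.3% and, over 400 kb, 8.24%. Leaving out the 48 genes of a neuronal list, many of them very long, gave 0.515 per Mb over 400 kb and a ratio of 0.285 (0.187 to 0.416, exact conditional binomial p = 5.64e-15). Among the long hosts were Rora, a nuclear receptor of the clock and of innate lymphoid cells (735 kb), Dock2, a gene of leukocyte migration (557 kb), Sox6, a factor of erythroid maturation (570 kb), and Auts2 (1106 kb).

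**Figure D2:**
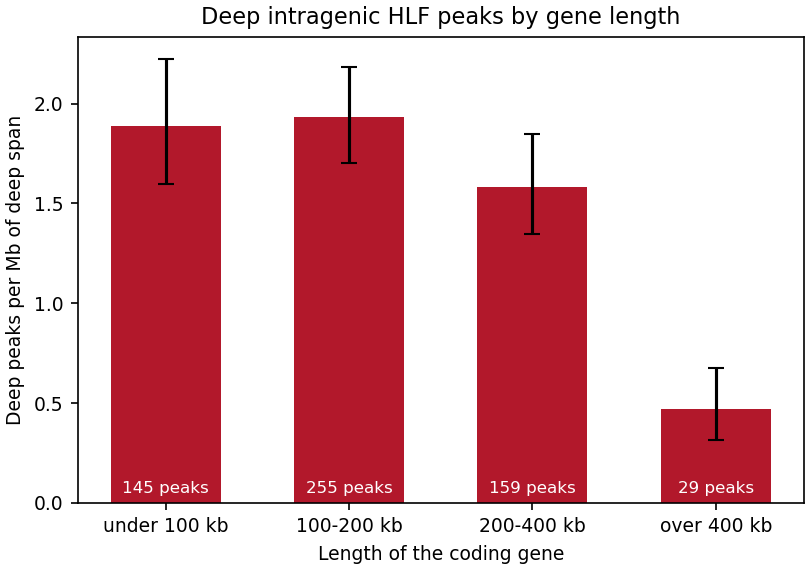
Deep peaks per Mb of deep intragenic span (y) by length of the coding gene (x), over all eligible genes with or without a peak, with 95% exact Poisson intervals and the number of peaks in each bar. The bars under 400 kb stand between 1.58 and 1.93 per Mb and the bar over 400 kb at 0.469.

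Within their hosts, deep peaks lay more often on the 5′ side, by a smaller margin without the bins of length next to the midpoint. The strand was known for 388 hosts with 455 of the peaks. Of these, 264 (58.0%) lay closer to the 5′ end than to the 3′ end of the host, at 1.83 per Mb, against 191 on the 3′ side at 1.32 per Mb. The ratio was 1.39 (1.15 to 1.68, exact conditional binomial test, adjusted p = 7.59e-04 over 5 tests added after the data were seen). The largest step between neighbouring bins of 10% of the length was at the middle of the gene, with 89 peaks between 40 and 50% and 40 between 50 and 60%. Without these 2 bins there were 175 peaks on the 5′ side at 1.57 per Mb, against 151 on the 3′ side at 1.35 per Mb, a ratio of 1.16 (0.930 to 1.45) that did not pass the threshold (exact conditional binomial p = 0.184). The bins were chosen for their step, so a lower ratio without them was built in, and its interval includes 1.39. The median position was 46.1% of the way from the 5′ end. Exons and introns were not told apart.

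**Figure D3:**
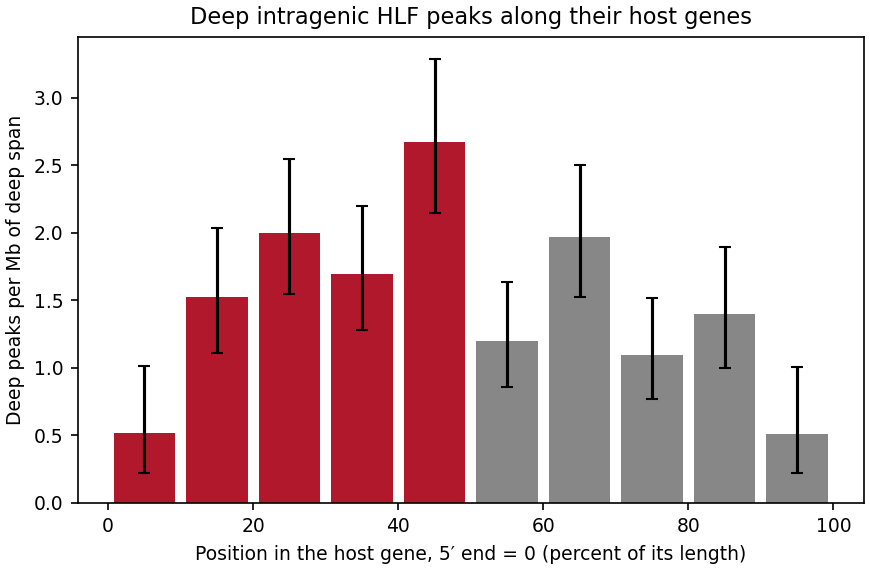
Deep peaks per Mb of deep span (y) along the host gene from its 5′ end at 0 to its 3′ end at 100% (x), for 455 peaks, with 95% exact Poisson intervals; red bars are the 5′ side and grey bars the 3′ side. The tallest bar, at 40 to 50%, stands at 2.67 per Mb and its neighbour at 50 to 60% at 1.20.

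Most hosts held 1 deep peak and a few held several. There were 423 genes with 1 deep peak, 62 with 2, 13 with 3 and 1 with 4. The gene with 4 was Gab2, a scaffold that links cytokine receptors to SHP2 and PI3 kinase (chromosome 7, 97081751 to 97308951). Its peaks were centred 92.7, 97.8, 128.4 and 129.6 kb above its lower end, in the middle of the gene and at least 92.7 kb from either end. No FLAG-HLF peak lay within 20 kb of an end inside Gab2.

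Of the genes with 3 deep peaks, Etv6 and Lcp1 are known from blood. Etv6, an ETS repressor needed by blood stem cells (chromosome 6, 134035700 to 134270158), had them 37.4, 80.1 and 136.4 kb from its 5′ end. The farthest of these was 0.755 kb from an end of the noncoding gene Gm52920. Lcp1, which encodes the leukocyte actin bundler L-plastin (chromosome 14, 75131105 to 75230842), had them at 47.9, 49.8 and 64.7 kb, so that the first 2 were 1.91 kb apart. Mbp encodes myelin basic protein (chromosome 18, 82475091 to 82585637), and its peaks were 51.0, 60.2 and 62.0 kb above its lower end.

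Mcu, the pore of the mitochondrial calcium uniporter (chromosome 10, 59446984 to 59617409), had its 3 peaks in a 24.95 kb stretch, 27.7, 39.4 and 52.7 kb from its 5′ end. Trak1, an adaptor that ties mitochondria to kinesin (chromosome 9, 121297502 to 121474919), had them within 11.6 kb, at 51.8, 55.1 and 63.4 kb. Lyrm4, a partner of the iron-sulfur cluster enzyme (chromosome 13, 35978797 to 36117357), had them at 29.0, 42.6 and 97.9 kb. In Mcu and Trak1 all 3 peaks lay on the 5′ side of the gene, and in Lyrm4 2 of 3 did.

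The other genes with 3 deep peaks showed both tight and wide spacing. Rnf24, a RING finger gene (chromosome 2, 131298488 to 131352892), held its 3 in 7.99 kb although only 13.7 kb of the gene met the distance rule. Asph, a hydroxylase of aspartyl residues, had 2 peaks 1.02 kb apart and another 110.0 kb away from them. Megf11 likewise had 2 peaks 1.01 kb apart and the third 42.0 kb off. In 1700025G04Rik 2 of the 3 were 3.62 kb apart. Rere, an atrophin-family corepressor, spread its 3 over 233.7 kb, Specc1 over 135.7 kb and M1ap over 34.9 kb.

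**Figure D4:**
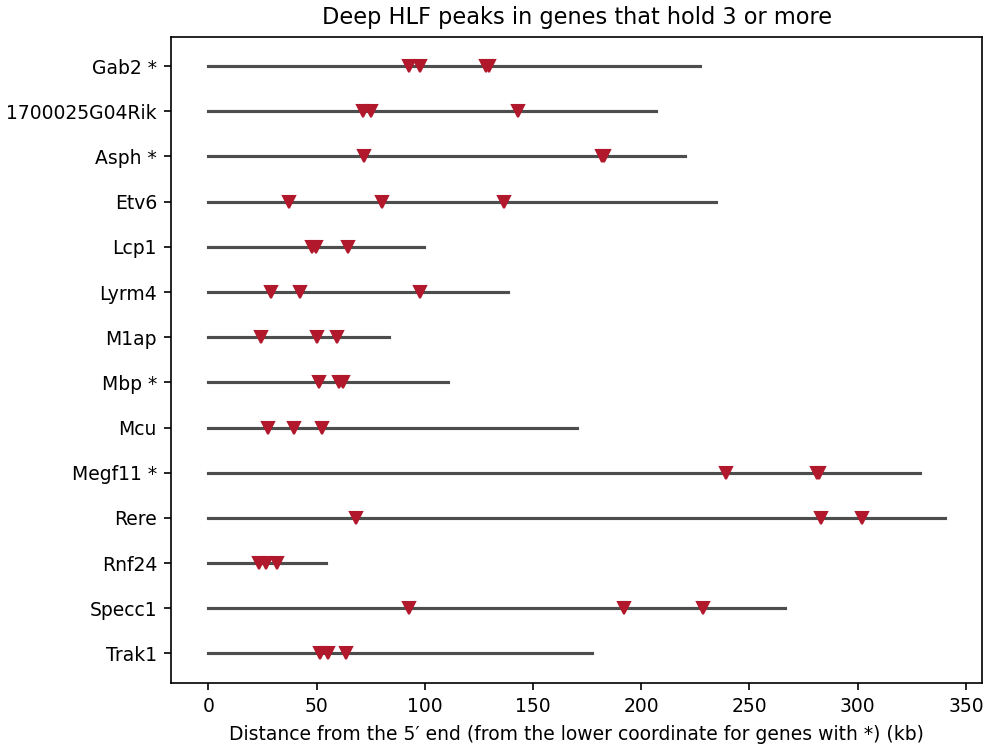
Positions of deep peaks (red triangles) in the 14 genes with 3 or more, each gene drawn to scale as a line in kb (x) from its 5′ end, or from its lower coordinate where marked with an asterisk. Gab2 carries 4 triangles near its middle, Rnf24, Trak1 and Mbp carry theirs close together, and those of Rere span 233.7 kb.

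Among genes with 2 deep peaks, the closest pairs were 0.672 to 2.12 kb apart. Uck2, a uridine-cytidine kinase, had a pair 0.672 kb apart (chromosome 1, 167246303 to 167246702 and 167246975 to 167247374). Vav3, a signalling protein of blood cells, had a pair 1.03 kb apart that lay 20.6 and 21.6 kb from its 5′ end. Arid2, a subunit of the PBAF remodeler, had one 1.09 kb apart, Vrk1 one 1.16 kb apart, and St7 one 1.21 kb apart. In Vrk1 and St7 one peak of the pair covered the internal start described above. Pairs in Cdh22, Atp8a1 and Mtus1 were 1.42, 1.68 and 2.12 kb apart.

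Close neighbours were also counted in other classes of peaks. Of the 588 deep peaks, 47 had another peak within 5 kb (7.99%, 5.93 to 10.5%), against 8.64% of distal intergenic peaks (6.18 to 11.7%) and 8.21% of intragenic peaks 1 to 20 kb from a gene end (6.47 to 10.2%). Neither difference passed Fisher's exact test (adjusted p = 0.832 and 0.922). With 1 peak kept per host, the difference to distal intergenic peaks was -4.01 percentage points (Fisher's exact adjusted p = 0.0274). A dropped peak still counted as a neighbour, so a pair within a host counted as 1 peak, while both peaks of a distal intergenic pair counted. For 43 of the 47 the close neighbour was itself a deep peak. The median distance to the nearest other peak was 106 kb, against 100.96 kb for distal intergenic peaks.

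Few hosts, and few other eligible genes, had a peak at their ends. Of the 499 hosts, 12 (2.40%, 1.25 to 4.16%) had a FLAG-HLF peak within 1 kb of an own end, against 85 of 5353 eligible genes without a deep peak (1.59%, 1.27 to 1.96%). This difference did not pass Fisher's exact test (adjusted p = 0.294). All 12 were hosts of at most 200 kb, and the shares differed by length. Under 100 kb 3.76% of hosts and 1.88% of the others had such a peak, and at 100 to 200 kb 3.37% and 1.15% did. Above 200 kb it was 0 hosts, against 0.787% and 1.55% of the others in the 2 longer classes. The differences within a class were not tested. The 12 were Irf2, a factor of interferon responses, and Rin3, a Rab5 exchange factor, with 2 deep peaks each, and Per2, Rbpms, Mbnl1, Nek6, Rab27a, Emb, Ppp1r16b, Tbl1x, Bsn and Cacng2 with 1 each. Per2, a clock repressor of 43.4 kb, had its deep peak 21.6 kb from one end and 21.8 kb from the other, in a gene where 3.37 kb met the rule. All 12 were named after their values were seen.

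Deep peaks were less often near noncoding genes than peaks outside coding genes were. Of the 588, 77 (13.1%, 10.5 to 16.1%) had a centre within 5 kb of an end of a noncoding gene, against 136 of 440 distal intergenic peaks (30.9%, 26.6 to 35.5%; Fisher's exact test, adjusted p = 1.49e-11). Within 1 kb the shares were 3.57 and 10.0% (adjusted p = 1.08e-04, Fisher's exact test). The annotation differed in the same way, since 8.68% of the deep intragenic span and 19.1% of the distal intergenic span lay within 5 kb of such an end. Per Mb, deep peaks were 1.58 times as dense within 5 kb of a noncoding end as beyond it (1.23 to 2.02, exact conditional binomial adjusted p = 5.28e-04), against 1.90 times for distal intergenic peaks (1.54 to 2.33, exact adjusted p = 7.18e-09). The intervals of these ratios overlap, and their difference was not tested.

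The 21 deep peaks within 1 kb of a noncoding end were nearest to a long noncoding RNA gene in 15 cases, a pseudogene in 5 and a small nuclear RNA gene in 1, and both peaks of Uck2 were near the same pseudogene. The closest were at Gm51758 in Syne1, a giant nuclear envelope gene (17 bases), Gm52099 in Ptk2b, which encodes the kinase PYK2 (40 bases), and Gm36034 in Stac (64 bases). Next were Gm39446 in Map2k6, a kinase upstream of p38 (91 bases), Gm52566 in Dlgap4 (96 bases), Gm11714 in Pitpnc1 (106 bases), Gm51816 in Uck2 (120 bases) and Gm15350 in Atp11a, a phospholipid flippase (126 bases). Of these 8, the ends at Stac, Map2k6, Dlgap4 and Pitpnc1 are transcription starts by the start windows. The end at Ptk2b could not be classed, since the nearest annotated start was 918 kb from the other deep peak of that gene.

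Gene lists of blood lineages and signalling described the hosts further. The 13 lists hold 458 genes, of which 318 were eligible and 57 held a deep peak. Members of 11 lists had more deep peaks per Mb than the 1.58 of all deep span, although the intervals of 10 of these included 1.58. The exception was the list of cytoskeleton and adhesion genes, whose interval of 1.69 to 6.07 includes the 1.93 per Mb of all genes of 100 to 200 kb, the class of its median length of 116 kb. The lists were drawn up from general knowledge with earlier results of these data known and got no test, so their shares stand beside the 8.53% of all eligible genes, and the 14.5% of those of 100 to 200 kb, as a description.

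**Figure D5:**
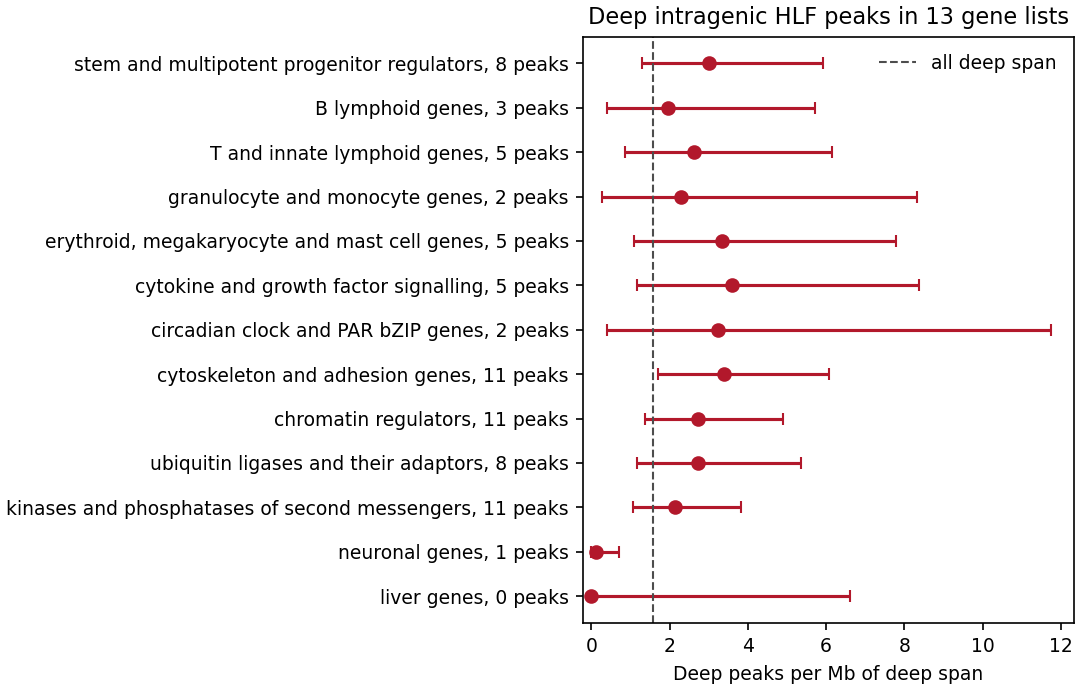
Deep peaks per Mb of deep span (x) in the eligible genes of 13 lists (y), with 95% exact Poisson intervals and the number of peaks; the dashed line is the density over all deep span, 1.58 per Mb. The neuronal list, at 0.127, has its whole interval below the line, but the interval includes the 0.469 per Mb of all genes over 400 kb.

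Cytoskeleton and adhesion genes had 11 deep peaks at 9 of 36 eligible genes, or 3.40 per Mb (1.69 to 6.07). Among them Ptk2b and Daam1, a formin, had 2 each, and Itga4, the integrin chain that holds progenitors in the marrow, had 1 at 34.9 kb from its 5′ end.

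The stem and multipotent progenitor list had 8 deep peaks at 6 of 26 eligible genes, 3.01 per Mb (1.30 to 5.93). Beside the 3 in Etv6 there was 1 each in Cdk6, Rbpms, Erg, Msi2 and Angpt1. Erg, an ETS factor of stem cells, had its peak 170.6 kb from its 5′ end and 56.9 kb from the other (chromosome 16, 95415827 to 95416226). Msi2, an RNA-binding protein that sustains stem cells, had its peak 318 kb into the gene and 61.0 kb from its 3′ end (chromosome 11, 88400152 to 88400551). In these 2 genes the peak was on the 3′ side.

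B lymphoid genes had 3 at 3 of 21, in Syk, a B cell receptor kinase, Foxo1, a factor of early B cells, and Ptprc, which encodes CD45, or 1.96 per Mb (0.403 to 5.72). T and innate lymphoid genes had 5 at 5 of 20, in Notch1, Rora, Zbtb16, Itga4 and Cblb, a ubiquitin ligase that restrains T cell activation, or 2.63 per Mb (0.856 to 6.15). Both lists stood above the 1.58 of all deep span with intervals that include it. The peak in Notch1, a gene of 45.9 kb, was 20.03 kb from its 5′ end (chromosome 2, 26483592 to 26483991). Clock and PAR bZIP genes had 2 at 2 of 9, in Rora and Per2, and Hlf itself had none.

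The granulocyte and monocyte list had 2 deep peaks at 2 of 7 eligible genes, Dock2 and Runx2, or 2.30 per Mb (0.279 to 8.32). Runx2 is known mainly as a factor of bone, so this list is not specific to those cells. Erythroid, megakaryocyte and mast cell genes had 5 at 4 of 13, with 2 in Vwf, the von Willebrand factor gene, and 1 each in Mef2c, Sox6 and Rab27b, a GTPase of platelet granules. Cytokine and growth factor genes had 5 at 2 of 24 genes, since 4 of the 5 were in Gab2. The other was in Igf1r, the receptor of IGF1, 32.9 kb from its 5′ end. So 8.33% of that list held a deep peak, near the 8.53% of all eligible genes, while its 3.59 per Mb (1.16 to 8.37) rests on Gab2.

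Among regulators that act in many cell types, chromatin genes had 11 deep peaks at 10 of 45 (2.74 per Mb, 1.37 to 4.89), with 2 in Arid2 and 1 each in Hdac7, a class II deacetylase, Ncoa3, a coactivator, Arid5b, Zbtb20 and Kmt2c, an H3K4 methyltransferase, among others. The list of ubiquitin ligases and adaptors had 8 at 7 of 33 (2.72 per Mb, 1.17 to 5.36). There were 2 in Nedd4l and 1 each in Smurf1, Cbl, Cblb, Herc1, Rnf220 and Parp8. Parp8 encodes a PARP family protein and not a ubiquitin ligase, but its peak is counted in these values. Second messenger kinases and phosphatases had 11 at 9 of 43 (2.14 per Mb, 1.07 to 3.84), with 2 each in Dgkg, a diacylglycerol kinase, and Ppp3ca, the catalytic subunit of calcineurin. Single deep peaks lay in Camk2d, Pip5k1b, Itpr1 and Ppp1r16b, among others. The list also holds genes that encode neither a kinase nor a phosphatase, such as Itpr1, an IP3 receptor.

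Of the lists for tissues outside blood, the neuronal one had fewer deep peaks per Mb than all deep span. It had 1, in Auts2, at 47 eligible genes with 7.88 Mb of deep span, or 0.127 per Mb (0.00321 to 0.707). The liver list had 0 at 10 eligible genes with 0.559 Mb of deep span, which allows up to 6.604 per Mb (the upper 95% Poisson bound), so no departure from 1.58 could be seen at this size. The median length of the eligible neuronal genes was 1020 kb, so this list and the class of genes over 400 kb overlap. The neuronal interval includes the 0.469 per Mb of that class, and a difference between the list and the class was not tested.

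By chromosome, deep peaks were sparse on X. X held 2, in Pak3, a p21-activated kinase (143582072 to 143582471), and in Tbl1x, a subunit of the NCoR corepressor (77578221 to 77578620). This was 0.116 per Mb (0.0141 to 0.420), against 1.66 on the autosomes (1.52 to 1.80), a ratio of 0.0702 (0.00848 to 0.255, exact conditional binomial adjusted p = 3.83e-09 over the 5 added tests). Other peaks were sparse on X too, and the shares on X, 0.340% of deep peaks and 0.897% of all others, did not differ by Fisher's exact test (adjusted p = 0.294). Among the autosomes the density ran between 1.09 per Mb on chromosomes 1 and 3 and 2.25 on chromosomes 11 and 19.

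The order of the lines in the file is not explained. The first 315 lines held 46 of them, or 7.82% of the deep peaks (5.78 to 10.3%), against 10.5% of all other peaks (9.33 to 11.7%; Fisher's exact test, adjusted p = 0.113). With a lower limit of 30 kb for deep peaks the difference of these shares was -3.91 percentage points and passed the threshold (Fisher's exact adjusted p = 0.0228). The first 1576 lines held 49.3% of the deep peaks and 50.1% of the others (Fisher's exact adjusted p = 0.832). Deep peaks made up between 14.6 and 21.9% of each of 10 blocks of 315 or 316 lines.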

How the data were processed

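Anti-FLAG ChIP-seq was done on FLAG-HLF and GFP-ctrl LSK cells, 1 library each. The submitters' processing notes name MACS2, Bowtie2 and bedtools and the builds mm10 and GRCm38, without roles or versions. The sources used here do not give the peak threshold, the filters or the use of the control library. The authors deposited 3 columns (chromosome, start, end) without header or score, and every interval is 400 bases wide, so depth and precision per peak are unknown. Gene bounds were those of RefSeq on GRCm38.p6 (21900 coding genes of 49997). Starts, strands and sequence came from 32851 RefSeq windows of 250 bases upstream to 50 downstream. They covered 27025 genes, with none on chromosome 18 and gaps on other chromosomes. Genome sequence was not used here, so the planned motif tests were replaced by counts in these windows.

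Span was counted base by base between neighbouring coding gene ends. Shares were compared with Fisher's exact test and densities with the exact conditional binomial test, two-sided, with Benjamini-Hochberg adjustment over 10 tests and, separately, over 5 added after the data were seen (threshold 0.05). Span counts and tests were tested on simulated data. Named genes were those with 3 or more deep peaks, the 8 closest pairs, up to 6 per list, the 5 farthest and 3 on each side of the 20 kb limit, and the 8 nearest noncoding ends; genes of the start windows, of X and of gene ends, and the long hosts named as examples, fell outside this rule, as did Parp8. The members and lists were chosen with earlier results of these data known. Of the 458 list genes, 455 matched by symbol; 1 further list is not reported here. Tests used scipy 1.17.1 under Python 3.11.15, tables pandas 2.3.3 with numpy 2.4.6, and figures matplotlib 3.10.9.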

Additional observations from a re-analysis of the deposited data

How the results depend on the processing

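Alternatives changed the distance limits, the gene set, the demand on the interval, the number of peaks per host and the chromosomes. For 9 results there were 59 alternative values. The demand that the whole interval lie in the gene removed no peak, so its 8 values equal those reported and test nothing. Of the other 51, neither direction nor call changed for 45, counting a number of peaks within 1.5 times of 588 as no change. With a lower limit of 10 kb there were 888 deep peaks. With a lower limit of 30 kb, the share of deep peaks in the first 315 lines, minus that of other peaks, was -3.91 percentage points and passed the threshold (Fisher's exact adjusted p = 0.0228). The difference in peaks within 5 kb of another, deep against distal intergenic, was 0.141 percentage points with the 10 kb limit and 0.222 with the 30 kb limit, both above 0 and not past the threshold. With 1 peak per host it was -4.01 points (Fisher's exact adjusted p = 0.0274). By its construction this setting counts a close pair within a host as 1 peak, while both peaks of a distal intergenic pair still count. The ratio of deep intragenic to distal intergenic density ran from 1.34 to 2.37, that of genes over 400 kb to shorter ones from 0.237 to 0.310, and that of the 5′ side, whose alternatives were chosen after seeing the data, from 1.16 to 1.45. The lowest, 1.16, was without the bins next to the midpoint and did not pass the threshold (exact conditional binomial p = 0.184). The share on X could not be computed for autosomes alone. With 1 library and no read counts, no replicate could be left out and no peak could be ranked. No paired analysis was possible because each arm has 1 library and 1 list was analysed.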
